A study of Rattus norvegicus with 30 samples.

Results

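The moderate methylated regions are 10722 stretches of the rat autosomes in which each of 30 prefrontal cortex (PFC) libraries had a called peak of methylated DNA, and whose mean peak height was not among the highest 10% of such stretches. They were chosen by their measured values: peaks on chromosomes 1 to 20 that shared at least 1 bp were merged, the 11914 regions with a peak in all 30 libraries were kept, and the lower 90% by mean height were taken. The moderate regions are 1.77% of all 604866 merged regions and 3.05% of the 352026 regions with a peak in at least 3 libraries, which were tested together. Height here is the highest coverage by fragments (pileup) of a library's peaks in a region, scaled to 1000000 filtered fragments.

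The animals were Sprague-Dawley rats at postnatal day 22, with 10 in each of 3 groups named for the diet of the dam during gestation. Control (CON) dams ate a pelleted diet freely, prenatal alcohol exposure (PAE) dams drank a liquid diet that contained ethanol, and pair-fed (PF) dams received a liquid diet without ethanol in the amount taken by a PAE partner. Each group held 5 animals labelled female and 5 labelled male from 5 dams, and libraries were run on lanes 4 to 8 by the labels, with no PAE library in lane 7 and no PF library in lane 4. Bulk PFC was used, so a change in methylation per cell and a change in the mix of cells cannot be told apart, and DNA peaks gave no marker genes against which the tissue label could be checked.

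DNA methylation (DNAm) in mammals is mainly the addition of a methyl group to cytosine where guanine follows (CpG), and neurons also carry it at other cytosines. Methylated DNA immunoprecipitation followed by sequencing (meDIP-seq) pulls down fragments with an antibody to 5-methylcytosine, so the signal of a region grows both with the share of its cytosines that are methylated and with how many cytosines it has. Most CpGs of a brain cell are methylated, while those of active promoters rich in CpG usually are not, and the level in gene bodies and between genes varies with sequence and activity.

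Between 11548314 and 16555049 filtered fragments lay behind each library, and 103898 to 208631 autosomal peaks were called per library, of which 5.38 to 10.8% lay in the moderate regions. Peaks on the sex chromosomes did not follow the sex in the labels. In 7 libraries, 2 labelled female and 5 labelled male, chromosome X held 2.65 to 3.14% of the peaks and chromosome Y 4 to 11 peaks, whereas in the other 23 it held 0.774 to 1.15% and chromosome Y 38 to 87 peaks. In this respect 12 libraries went with their label, 2 labelled female and 10 labelled male, and 18 went against it, so sex is given as labelled. The dam of each animal comes from the same labels and could not be checked against the peaks, so every result by litter rests on labels that may be wrong. Treatment group and lane also come from these labels and were not checked. Every contrast of groups below therefore rests on labels that may be wrong too. Contrasts within the libraries labelled female and the interactions with labelled sex were not run without those 18 libraries.

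Of 11 genes in or beside which the study lists a region that is also a moderate region, Hyal2 is the one where it lies at the first exon, so the sequence before it is shown. The region chr8:116326454-116327416 (Rn6) covers the first exon and part of an intron of Hyal2, the gene of a membrane-anchored hyaluronidase, by the positions in the supplementary tables of the study. The 250 bases before the RefSeq start of Hyal2, at chr8:117121552-117121801 on the plus strand of the later build GRCr8, are given with each CG in capitals.
Hyal2: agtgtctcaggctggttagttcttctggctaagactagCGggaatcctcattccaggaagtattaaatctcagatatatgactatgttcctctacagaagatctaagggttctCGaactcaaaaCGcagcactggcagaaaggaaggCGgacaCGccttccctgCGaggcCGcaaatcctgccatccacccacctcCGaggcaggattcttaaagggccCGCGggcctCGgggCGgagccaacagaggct
This window held 12 CG, and 31.5% of the 33469 promoter windows of the same length in the RefSeq table held as many or more, with a median of 5. Whether the window lies within the peak was not tested, since the builds differ.

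The rule fixed the upper limit of the level of the moderate regions. Their mean height over the 30 libraries ran from 0.650 to 2.75 per 1000000 fragments, with a median of 1.29 and quartiles of 1.09 and 1.55. In single libraries the pileup at a moderate region was 5 to 123 fragments, with a median of 18 and 90% of values between 10 and 33. The 1192 regions above the limit had a median mean height of 4.43 and reached 1874.

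**Figure D1:**
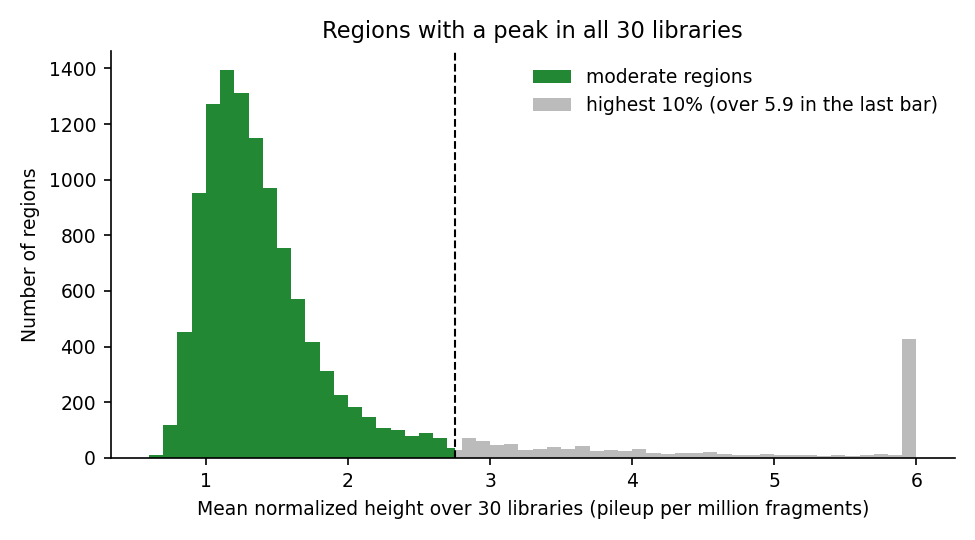
The histogram counts regions with a peak in all 30 libraries by their mean normalized height (x axis, pileup per 1000000 fragments), with the 10722 moderate regions in green, the highest 10% in grey and the limit as a dashed line. The moderate regions pile up around their median of 1.29, and the limit at 2.75 falls in the tail of 1 continuous distribution, not in a gap.

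No gap separates the moderate regions from those above them. The last regions inside the limit were chr5:131540886-131541992, chr1:26618330-26619000 and chr12:138370-138953, each with a mean height of 2.75. The first outside were chr15:31985968-31986731, chr6:17835085-17835992 and chr1:54846569-54847673, each with a mean height of 2.76. At the lower end, chr14:89594070-89595637, chr5:122908443-122909184 and chr10:87772177-87773702 had mean heights of 0.650, 0.660 and 0.685. Their lowest libraries, at 0.366, 0.432 and 0.362, were all under the floor of 0.438 that was used for fitting.

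Peaks in the moderate regions were about as wide as in the higher regions and wider than in regions called in fewer libraries. Their median region length was 900 bp (322 to 4284 bp), against 778 bp for the 1192 higher regions and 707 bp for the 88933 regions with a peak in 15 to 29 libraries, and together they covered 10.5 Mb. A merged region grows with every library that adds a peak, so the length of the peak within a library is the fairer measure. That peak had a median length of 540 bp in the moderate regions, 542 bp in the higher regions and 366 bp in the regions with 15 to 29 libraries. Within each library the median peak of the moderate regions (486 to 602 bp) was longer than that of the regions with 15 to 29 libraries (339 to 416 bp) in 30 of 30 libraries. Against the higher regions, with 518 to 580 bp, it was shorter in 24 of 30 libraries.

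The enrichment that MACS2 gave to these peaks lay between the other classes, as it must to some degree, since it comes from the same pileup that chose them. Fold enrichment over the local background had a median of 5.91 in the moderate regions, 11.03 in the higher regions and 4.55 in the regions with 15 to 29 libraries. The median −log10 q-value was 8.26, 41.5 and 4.76, respectively. Summits, the points of highest pileup, sat at nearly the same place in different animals: their median absolute deviation from the median position was 31 bp in the typical moderate region and 50 bp or less in 71.7% of them. In the higher regions it was 7 bp and 97.5%, and in the regions with 15 to 29 libraries 30 bp and 73.3%, close to the moderate ones. Over 1 summit was recorded in 29.2% of the pairs of a moderate region and a library, against 34.7% for the higher regions and 8.17% for the regions with 15 to 29 libraries.

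The longest moderate regions were less enriched than the shortest. The longest, chr7:20183984-20188267 (4284 bp), chr13:84303185-84306442 (3258 bp) and chr1:38631245-38634487 (3243 bp), had fold enrichments of 3.84, 4.02 and 4.73. The shortest, chr1:61796066-61796387 (322 bp), chr2:194944000-194944326 (327 bp) and chr19:26306039-26306379 (341 bp), had 8.41, 7.12 and 6.09. Their summits varied by 4.5 to 7 bp between animals, against 16.5 to 100.5 bp for the 3 longest.

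Moderate regions lay on all 20 autosomes, from 307 on chromosome 20 to 1223 on chromosome 1, with 4.10 per Mb on average. Density was lowest on chromosome 3, with 3.43 per Mb, and highest on chromosome 12, with 6.51 per Mb. As a share of the tested regions of a chromosome they made up 2.60% on chromosome 3 and 3.64% on chromosome 12. The median distance from a moderate region to the next was 140526 bp, and 659 of 10702 such distances (6.16%) were at most 10000 bp.

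Some stretches held many of them. The windows of 100 kb with the most, 10 each, were chr17:44411038-44488879 and chr18:29960867-30039069. In chr17:44411038-44488879, 10 of 21 tested regions were moderate and 4 belonged to the highest 10%, with mean heights of the 10 between 1.67 and 2.72. In chr18:29960867-30039069, 10 of 14 tested regions were moderate and none was higher, and the 10 were alike in length (925 to 1522 bp) and height (0.939 to 1.58). In chr1:39029128-39125351, 9 of 27 tested regions were moderate, with mean heights from 0.988 to 2.34. The first window mixed moderate and very high regions, whereas the second held no very high one. Both also held tested regions that had no peak in some libraries.

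The height of the moderate regions moved from library to library as a block and differed between sequencing lanes. The higher regions moved too, with library medians from 3.87 (PAE replicate 3_M, lane 4) to 5.45 (PAE replicate 2_F, lane 8). The library's median over the moderate regions ran from 1.08 to 1.61, a factor of 1.49 between libraries. By lane it was 1.14 ± 0.0564 in lane 4 (SD, n = 5), 1.21 ± 0.0459 in lane 5 (n = 7), 1.20 ± 0.106 in lane 6 (n = 7), 1.41 ± 0.100 in lane 7 (n = 5) and 1.49 ± 0.153 in lane 8 (n = 6). Every library of lanes 7 and 8 was above every library of lane 4, the lowest at 1.24 and the highest at 1.22. By group it was 1.36 ± 0.184 in CON, 1.28 ± 0.139 in PF and 1.23 ± 0.152 in PAE libraries (SD, n = 10 each), and the groups overlapped over most of their ranges of 1.13 to 1.61, 1.15 to 1.59 and 1.08 to 1.57. Within lanes that held both, PAE was below CON in lane 4 (means of 1.09, n = 2, against 1.18, n = 3). It was also below in lanes 6 (1.13, n = 3, against 1.37, n = 1) and 8 (1.39, n = 3, against 1.59, n = 2). PAE was above CON in lane 5 (1.25, n = 2, against 1.16, n = 1). Lanes 5 and 6 held 1 CON library each and lane 8 held 1 PF library. Counts of lanes given below for single regions thus rest in part on single libraries. The part of lane in the group differences was not tested beyond the lane term of the model. The fragment length that MACS2 recorded also differed, at 229 to 245 bp in lane 4 and 244 to 254 bp in lane 8. Heights were not scaled for it, and its part in the differences between libraries was not tested.

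**Figure D2:**
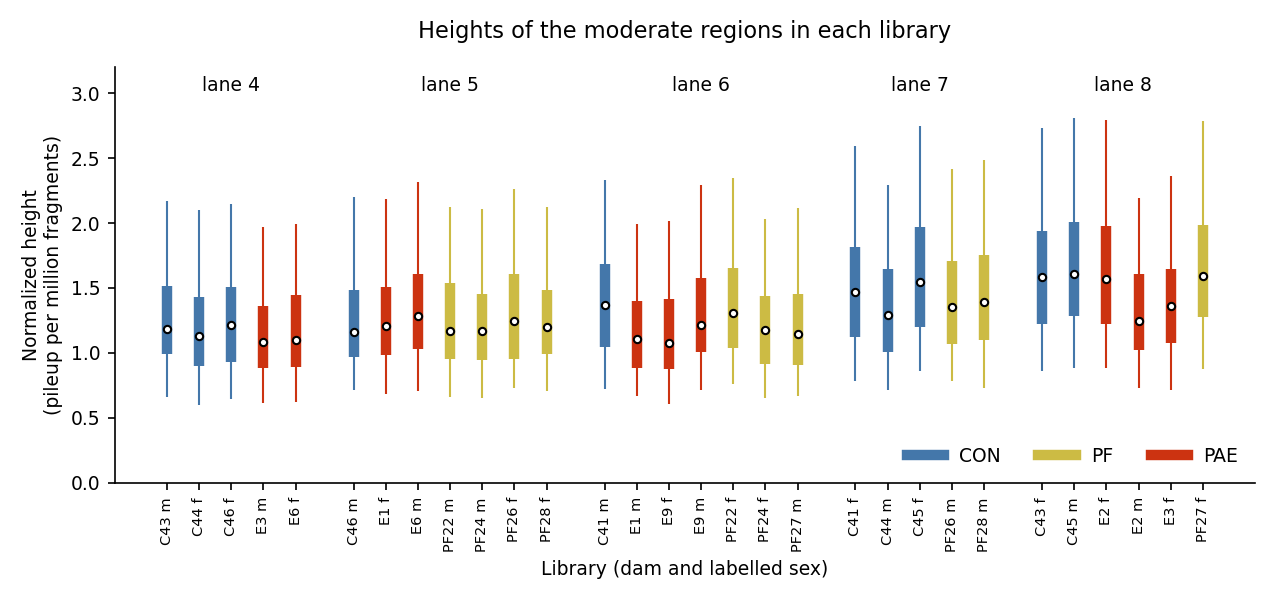
Each column is 1 library, ordered by lane and coloured by group, named by dam and labelled sex (f or m). The circle marks the median normalized height over the 10722 moderate regions, the thick bar the quartiles and the thin line the 5th to 95th percentile. Medians in lanes 7 and 8 (1.24 to 1.61) stand above those in lane 4 (1.09 to 1.22).

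The groups were compared on log2 heights with limma, with labelled sex and lane in the model and p-values adjusted over all 352026 tested regions. At an FDR of 0.05 no moderate region separated PAE from CON animals, where 0.000284% of all tested regions did (1 region, not a moderate one). None differed between PAE and PF or between PF and CON animals, against 0% of all tested regions in both contrasts. The smallest adjusted p among the moderate regions was 0.661, 0.988 and 0.773, respectively.

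At an unadjusted p under 0.05, 736 of the 10722 moderate regions (6.86%) differed between PAE and CON, with 7.37% of all tested regions as the background. Of these 704 were lower in PAE (6.57%, background 6.03%) and 32 were higher (0.298%, background 1.34%). Between PAE and PF 313 differed (2.92%, background 4.46%), 254 lower in PAE (2.37%, background 2.95%) and 59 higher (0.550%, background 1.51%). Between PF and CON 368 differed (3.43%, background 6.46%), 305 lower in PF (2.84%, background 4.39%) and 63 higher (0.588%, background 2.06%). Shares at or under the background are not a result about the moderate regions. The 3 contrasts share their groups and are not independent of each other.

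The moderate regions shifted together between groups, and this shift depended on how libraries were scaled. The median log2 difference over the 10722 regions was −0.12 between PAE and CON, −0.049 between PAE and PF, and −0.065 between PF and CON animals (the former minus the latter), against −0.054, −0.023 and −0.031 over all tested regions. With the libraries scaled by their median ratio over the regions called in all 30, which takes out such a shared shift, these medians were 0.0020, 0.0038 and −0.00087. The unadjusted calls between PAE and CON then numbered 537 (background 6.14%) with 275 of them higher (background 2.08%), in place of 736 with 32 higher. Between PAE and PF 413 were called (background 4.51%) with 212 higher (background 2.08%), and between PF and CON 442 (background 5.36%) with 226 higher (background 1.98%). The between-library SD of the median log2 height within groups was 0.17. It describes single libraries without regard to lane, whereas the median differences compare whole groups with lane and labelled sex in the model. That SD is therefore not the error of the median differences, and whether they exceed their error was not tested.

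**Figure D3:**
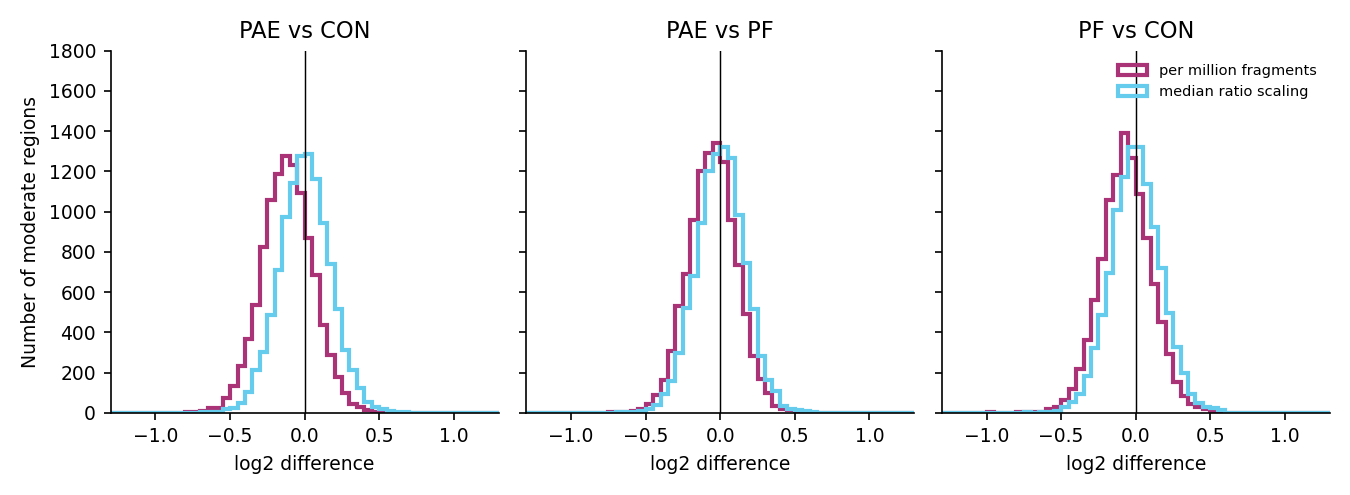
Histograms of the log2 difference of the 10722 moderate regions in each contrast, with heights per 1000000 fragments (purple) and after median ratio scaling (light blue). The purple distributions centre below 0, at −0.12, −0.049 and −0.065, and the light blue ones on 0, which follows from that scaling.

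Within the libraries labelled female, 0 moderate regions differed at an FDR of 0.05 in any contrast, with 0% of all tested regions in each. At an unadjusted p under 0.05, 518 (4.83%, background 6.87%) differed between PAE and CON. Between PAE and PF 602 did (5.61%, background 4.17%), and between PF and CON 399 (3.72%, background 5.9%). The median log2 difference between PAE and PF was −0.095 there, against −0.018 over all tested regions. With 1 animal left out the FDR counts of PAE and of PF against CON reached 11 and 8 without PAE replicate 6_F, and 6 and 5 without CON replicate 43_F. The shares of all tested regions in those refits are not given here, so these counts are not a result about the moderate regions. Within the libraries labelled male the FDR counts were also 0, with 0% of all tested regions called between PAE and CON, 0.000284% between PAE and PF and 0.000284% between PF and CON. The unadjusted counts were 789 (7.36%, background 4.6%), 472 (4.40%, background 3.54%) and 523 (4.88%, background 3.58%). Median log2 differences were −0.113, −0.041 and −0.072, against −0.043, −0.026 and −0.016 over all tested regions. Shares above the background within either labelled sex thus came with a shared shift, which depended on scaling when all 30 libraries were used. Its part in these shares was not tested, so they are not a result about the moderate regions. The interaction of group with labelled sex gave 0 moderate regions and 0% of all tested regions in each contrast. At an unadjusted p under 0.05 it gave 221 (2.06%, background 4.87%), 215 (2.01%, background 3.19%) and 215 (2.01%, background 4.77%). Among the 10 libraries labelled male that go with their label 0 moderate regions passed between PAE and CON (background 0%), 3 between PAE and PF (background 3%) and 10 between PF and CON (background 2.9%). Only 2 of those 10 libraries were PF and 1 of them was alone in its lane, so with lane in the model the PF arm rested on 1 library and nothing is read from these counts.

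Animals labelled female did not differ from those labelled male in any moderate region at an FDR of 0.05 (0% of all tested regions). At an unadjusted p under 0.05 the count was 274 of 10722 (2.56%, background 5.12%), with 222 higher (2.07%, background 3.55%) and 52 lower in libraries labelled female (0.485%, background 1.57%). The lowest p values belonged to chr12:19228393-19228983, chr2:205425842-205427749 and chr10:89508838-89510316. The first had a mean height of 1.58 ± 0.448 in libraries labelled female and 1.08 ± 0.288 in those labelled male (SD, n = 15 each), a log2 difference of 0.53 (SE 0.13, adjusted p = 0.854 by limma). The second was higher in libraries labelled male, at 1.80 ± 0.341 against 1.37 ± 0.308, and the third lower, at 0.765 ± 0.176 against 1.07 ± 0.211. Labelled groups overlapped in all 3. With only the 12 libraries that go with their label, 2 of them labelled female, 6 moderate regions passed the FDR of 0.05 (background 2.23%). Both libraries labelled female were in lane 5 with 1 labelled male, so nothing is read from that count.

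Lane was associated with 2 moderate regions at an FDR of 0.05 (113 regions, or 0.0321%, of all tested) and with 2088 at an unadjusted p under 0.05 (19.5%, background 13.6%). These were chr1:22871851-22872500 (adjusted p = 0.0294 by limma) and chr1:78734775-78736283 (adjusted p = 0.0446). The first had heights of 0.747 to 1.32 in lane 4, 0.877 to 1.16 in lane 5, 0.740 to 1.17 in lane 6, 1.22 to 1.82 in lane 7 and 1.75 to 2.25 in lane 8. Lane 8 did not overlap lanes 4 to 6 there. The second had mean heights of 1.10, 1.35, 1.12, 2.08 and 2.65 in lanes 4 to 8. The next, chr1:81398374-81400053, had an adjusted p of 0.0556, with 0.412 to 1.05 in lane 4 and 0.950 to 2.93 in lane 8. After median ratio scaling no moderate region passed for lane (574 at an unadjusted p under 0.05, background 8.05%). That scaling takes out the level of each library over mostly these same regions. The count of 2 was unstable: it reached 103 without PAE replicate 3_F and 87 without PAE replicate 2_M, and fell to 0 without some other animals. The shares of all tested regions in those refits are not given here, so these counts are not a result about the moderate regions. The count was 754 when only the 11914 regions called in all 30 libraries were fitted with no floor. There the variance trend was estimated, and p adjusted, over 11914 regions in place of 352026, so 754 and 2 cannot be compared.

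Litter as labelled, tested as differences among dams of the same group, was associated with 0 moderate regions (0% of all tested), and with 19 at an unadjusted p under 0.05 (0.177%, background 4.95%). The variance of each region was drawn towards a trend over all 352026 tested regions, many with values at the floor. Whether p values within the moderate regions are too large or too small for that reason was not tested. The absence of calls is thus not evidence that litters or groups are alike. The lowest p values were those of chr18:88062328-88063196, chr2:11419159-11419721 and chr19:29229350-29229823, with adjusted p values of 0.546, 0.618 and 0.696. Their heights over all 30 libraries were 0.439 to 2.65, 0.732 to 4.46 and 0.502 to 2.88.

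The spread of single moderate regions between animals was of the order of counting error at this depth, but the comparison is limited by how they were chosen. A region was kept only with a called peak in every library, which leaves out low values and lowers the spread. The SD of log2 height over the 30 libraries had a median of 0.36 (0.18 to 0.98, 90% between 0.27 and 0.48). An SD of 0.34 at the median is what counting alone would give at this depth. After median ratio scaling the median SD was 0.33, and the ratio of the variance to the mean of the depth-scaled pileup, which is 1 for counting alone, had a median of 0.868, below what counting gives, so counting alone is no exact yardstick here. The highest library exceeded the lowest by a factor of 2.79 in the typical region. In the lowest 20% of the moderate regions by mean height the median SD was 0.38, and in the highest 20% it was 0.34.

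**Figure D4:**
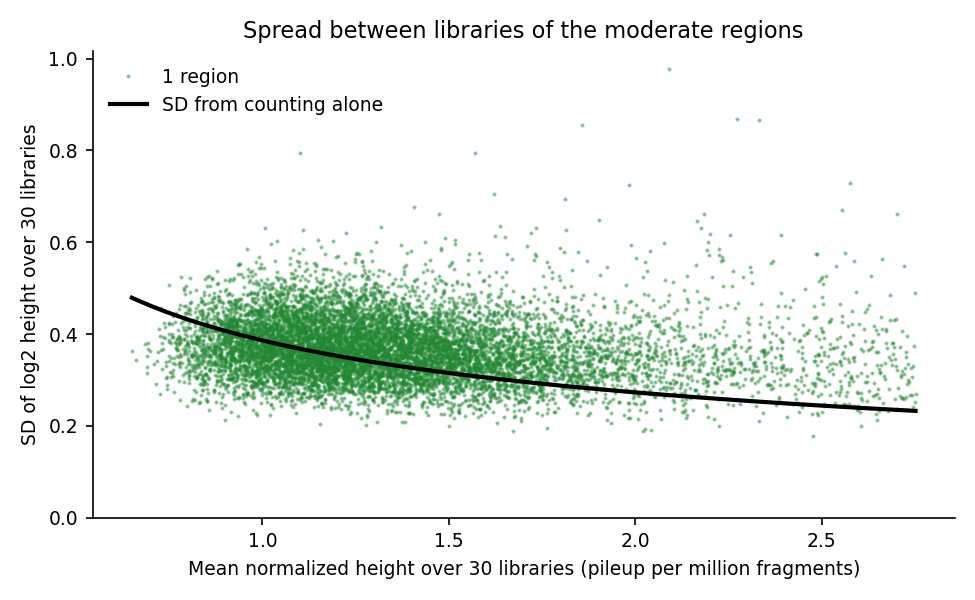
Each green point is 1 of the 10722 moderate regions, with its mean normalized height on the x axis (pileup per 1000000 fragments) and the SD of its log2 height over the 30 libraries on the y axis. The black line is the SD that counting of fragments alone would give at the mean depth. The cloud falls with the line, more of it above the line at high means than at low ones, and the 3 uppermost points lie at 0.87 to 0.98.

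A few regions departed from this. After median ratio scaling, 96 moderate regions (0.895%) had a variance more than 3 times their mean, of which 84 lay in the highest 20% by mean height and 0 in the lowest. The largest SDs were those of chr1:36749285-36750752 (SD of log2 0.98), chr7:13185092-13186523 (0.87) and chr15:24397490-24398735 (0.87). The smallest were those of chr14:89764516-89764952 (0.18), chr1:38955693-38956861 (0.19) and chr13:96185553-96186156 (0.19), whose heights over all libraries kept within 1.94 to 3.34, 1.58 to 2.93 and 1.22 to 2.12.

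The most variable region, chr1:36749285-36750752, was high in 4 PAE animals. Its height was 8.37 in the animal of dam E3 labelled female, 7.92 in that of dam E6 labelled male, 6.79 in that of dam E2 labelled male and 5.79 in that of dam E9 labelled female. The other 26 libraries had 0.752 to 2.75, so no value lay between 2.75 and 5.79. The 4 littermates of these animals had 0.815 (E3 labelled male), 1.37 (E6 labelled female), 1.57 (E2 labelled female) and 1.22 (E9 labelled male), and none of them was high. Group, sex and littermates are given as labelled. The study lists this region as PAE-specific. Its log2 difference was 0.82 for PAE versus CON (SE 0.37, adjusted p = 0.666) and 0.96 for PAE versus PF (SE 0.37, adjusted p = 0.988), and the 6 other PAE libraries, with 0.815 to 1.57, overlapped both other groups.

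The other 2 regions of large spread were not split by group. At chr7:13185092-13186523 heights ran from 0.659 to 4.24 in CON, 0.879 to 4.98 in PF and 0.859 to 3.77 in PAE animals. At chr15:24397490-24398735 they ran from 0.827 to 3.94, 1.02 to 6.48 and 0.740 to 3.51. All 3 groups overlapped nearly fully at both.

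Libraries that were alike at the most variable regions were mostly not littermates by their labels, which were not checked. Over the 100 regions with the largest SD, after median ratio scaling, the correlation of 2 libraries had a median of 0.0054 for the 15 pairs of littermates and −0.046 for the 420 other pairs, and 4 of 30 libraries were most like their littermate. The most alike pairs were the animal of dam E3 labelled female with that of dam E2 labelled male (r = 0.664, both in lane 8) and that of dam E9 labelled female with that of dam E6 labelled male (r = 0.621, lanes 6 and 5). These are the 4 animals that were high at chr1:36749285-36750752, which is itself 1 of the 100. The most alike littermates were the animals of dam C45 (r = 0.501, lanes 7 and 8), also among the most alike of all pairs. How many libraries would be most like their littermate by chance was not tested. These correlations are descriptions over 100 regions that were picked for their spread in the same libraries.

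Strong correlation was more common among near than among distant moderate regions. Each was paired with its next 7 on the chromosome, and among 674 pairs less than 10 kb apart, 3.12% had a correlation over 0.5 across the 30 libraries, and among 5735 pairs at 10 to 100 kb 2.48% did. At 100 kb to 1 Mb the share was 0.840% of 40003 pairs, and farther apart it was 0.374% of 28082 pairs. The median correlation was low throughout (0.051, 0.042, 0.012 and 0.0027). Of 51 pairs with a correlation over 0.7, 13 were on chromosome 19 and 7 on chromosome 17. These are descriptions, in which pairs share regions and libraries.

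A stretch of 126450 bp on chromosome 17, singled out after its values were seen, held the 3 moderate regions with the lowest p for PF versus CON. It contains 6 moderate regions among 32 tested, and the 15 pairs among the 6 had correlations of 0.22 to 0.90 over the 30 libraries, with a median of 0.65. At chr17:57860982-57861400 heights were 2.52, 2.78 and 4.50 in CON (lowest, median, highest), 0.801, 1.78 and 3.66 in PF, and 1.65, 2.40 and 3.22 in PAE animals. At chr17:57734951-57735758, which the study lists as PF-specific, they were 1.65, 2.44 and 3.81 in CON, 0.552, 1.70 and 2.41 in PF, and 1.49, 2.30 and 3.73 in PAE animals. At chr17:57786124-57787705 they were 1.08, 1.88 and 2.60 in CON, 0.583, 1.08 and 2.05 in PF, and 1.09, 1.49 and 2.65 in PAE animals. In each of the 3 the PF median was the lowest, and the groups overlapped. The log2 differences of PF from CON were −0.96 (SE 0.22), −0.97 (SE 0.25) and −0.87 (SE 0.22), each with an adjusted p of 0.773, and PF was lower in 4 of the 4 lanes with both groups at each. Since the 6 regions varied together, they are not separate observations.

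The lowest p values for PAE versus CON belonged to chr2:140245992-140246804, chr3:122669390-122670140 and chr15:19614533-19615103. At the first, heights were 1.50, 1.74 and 2.92 in CON (lowest, median, highest), 0.874, 1.64 and 2.55 in PF, and 0.611, 1.13 and 1.77 in PAE animals. The second had 1.45, 1.92 and 2.37 in CON, 1.02, 1.40 and 1.85 in PF, and 0.808, 1.16 and 1.74 in PAE animals. The PAE animals were lowest in median at both, with an overlap of the upper PAE and the lower CON values. The log2 differences were −0.79 (SE 0.18), −0.70 (SE 0.17) and −0.63 (SE 0.15), with an adjusted p of 0.661 each, lower in PAE in 4 of 4 lanes. Counting only peaks that cover at least 50% of the region turned the first of these to 0.27, so its direction depends on how its peaks are counted.

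For PAE versus PF the lowest p values were those of chr17:83533958-83534570 in Plxdc2, described among the genes, chr15:82080403-82081991 and chr2:113755707-113756673. At chr15:82080403-82081991 heights were 1.07, 1.61 and 2.55 in PF (lowest, median, highest) and 0.716, 1.09 and 1.77 in PAE animals, with CON between them at a median of 1.53. At chr2:113755707-113756673 they were 0.590, 0.902 and 1.35 in PF and 0.430, 0.577 and 0.950 in PAE animals. PAE was lower in 3 of 3 lanes at each, with log2 differences of −0.72 (SE 0.18) and −0.65 (SE 0.17) and an adjusted p of 0.988.

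Of the 1462 regions that the study lists as differing between groups, 26 overlapped a moderate region (0.242% of the moderate regions and 1.78% of the listed ones, where moderate regions make up 3.05% of tested regions) and 1 overlapped a higher region. The study picked its lists from these same animals, so the direction of these 26 is not independent evidence. They were 6 PAE-specific, 1 PF-specific and 19 shared regions. Of the 6 PAE-specific regions 5 were lower and 1 higher in PAE than in CON and in PF animals, and of the 19 shared regions 17 were lower and 2 higher in PAE and in PF than in CON animals. None passed an FDR of 0.05 here. The study called its regions at that FDR by edgeR on reads within peaks, after batch correction, some in 1 sex only. Here the highest pileup in all 30 libraries was fitted with lane, so the tests are not alike. The log2 differences of the shared regions ran from −0.58 to 0.35 for PAE versus CON and from −0.65 to 0.48 for PF versus CON.

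The tables of the study place 11 of the 26 in or beside a gene. The first group encodes enzymes and a pump. Atp2b2 encodes a plasma membrane calcium pump abundant in neurons, and its intronic region, chr4:145844392-145845064, had heights of 0.711, 0.902 and 1.37 in CON (lowest, median, highest), 0.483, 0.693 and 0.878 in PF, and 0.451, 0.732 and 0.894 in PAE animals. Gne encodes the enzyme that starts sialic acid synthesis, and its region at an exon and intron, chr5:59526331-59527033, had 0.969, 1.36 and 1.97 in CON, 0.849, 1.07 and 1.42 in PF, and 0.657, 0.961 and 1.43 in PAE animals. At both genes the CON median was the highest of the 3 and all groups overlapped. The log2 differences from CON were −0.28 (SE 0.17) for PAE and −0.33 (SE 0.18) for PF at Atp2b2, and −0.43 (SE 0.16) and −0.32 (SE 0.17) at Gne.

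Hyal2 encodes an enzyme that cuts hyaluronan, a sugar polymer of the matrix between cells, and its region at the first exon, chr8:116326454-116327416, had heights of 0.931, 1.40 and 2.06 in CON, 0.778, 1.03 and 1.75 in PF, and 0.687, 1.08 and 1.63 in PAE animals. Parn encodes a ribonuclease that shortens the poly(A) tails of RNA, and its intronic region, chr10:1406220-1406810, had 0.931, 1.47 and 2.16 in CON, 0.524, 1.13 and 1.67 in PF, and 0.644, 1.08 and 1.22 in PAE animals. PAE and PF animals lay below CON animals to a like extent at both. The log2 differences for PAE and PF versus CON were −0.46 (SE 0.16) and −0.48 (SE 0.17) at Hyal2, and −0.58 (SE 0.21) and −0.58 (SE 0.22) at Parn. PAE was lower than CON in 4 of 4 lanes and PF lower than CON in 3 of 4 at both, and adjusted p values were 0.661 and 0.773.

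The second group encodes proteins of cell shape, scaffolds and cilia. Dock1 encodes an activator of the small GTPase Rac, which drives actin remodelling, and its intronic region, chr1:206939165-206939871, had heights of 0.791, 1.44 and 1.77 in CON, 0.721, 1.17 and 1.39 in PF, and 0.591, 1.11 and 1.57 in PAE animals. Phldb1 encodes a protein with a pleckstrin homology domain, and its region, chr8:49011573-49012467, had 0.988, 1.62 and 2.40 in CON, 0.801, 1.18 and 1.72 in PF, and 0.942, 1.14 and 1.97 in PAE animals. Ccdc114, whose product docks dynein arms in motile cilia, had 0.677, 1.50 and 2.37 in CON, 0.659, 1.08 and 2.55 in PF, and 0.808, 0.941 and 1.46 in PAE animals at chr1:101910872-101912009. The lowest CON animal at Ccdc114 lay below every PAE animal although the CON median was the highest of the 3 groups. The log2 differences of PAE from CON were −0.46 (SE 0.18) at Dock1, −0.27 (SE 0.17) at Phldb1 and −0.47 (SE 0.19) at Ccdc114, with adjusted p values of 0.661, 0.714 and 0.661.

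Pdzd7 encodes a scaffold protein of the sensory hair bundle, and its region at an exon and intron, chr1:264784134-264784929, is listed as PAE-specific. Its heights were 1.29, 1.55 and 2.01 in CON, 1.31, 1.72 and 2.27 in PF, and 0.756, 1.25 and 1.91 in PAE animals. The means were 1.59 ± 0.240, 1.71 ± 0.250 and 1.24 ± 0.305 (SD, n = 10 each). PAE animals were lower than both other groups, which were alike in median, with log2 differences of −0.44 (SE 0.16, adjusted p = 0.661) from CON and −0.51 (SE 0.16, adjusted p = 0.988) from PF animals.

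A last group encodes surface proteins. Plxdc2 encodes a transmembrane protein with a plexin-like domain, and its intronic region, chr17:83533958-83534570, listed as PAE-specific, had the lowest p of all moderate regions for PAE versus PF. Its heights were 0.711, 1.16 and 2.73 in CON, 1.10, 1.60 and 2.39 in PF, and 0.538, 1.16 and 1.65 in PAE animals. The PF median was the highest, but the groups overlapped, and the highest CON animal was above every PF animal. The log2 difference was −0.83 (SE 0.20, unadjusted p = 0.000183, adjusted p = 0.988) for PAE versus PF, −0.41 (SE 0.20, adjusted p = 0.674) for PAE versus CON and 0.42 (SE 0.20, adjusted p = 0.773) for PF versus CON. Clec4b2 encodes a C-type lectin receptor, a family expressed on myeloid cells, and the region downstream of it, chr4:156132179-156132622, listed as shared in animals labelled female, had 1.50, 2.65 and 3.24 in CON, 1.42, 1.83 and 2.70 in PF, and 1.26, 1.69 and 2.50 in PAE animals. PAE was lower than CON there in 4 of 4 lanes, by −0.46 on the log2 scale (SE 0.15, adjusted p = 0.661).

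The remaining gene is Gpatch2l, whose intronic region, chr6:110210009-110211921, is listed as PAE-specific in animals labelled male. In all animals its heights were 0.860, 1.67 and 2.59 in CON, 1.20, 1.73 and 1.84 in PF, and 0.579, 1.03 and 1.89 in PAE animals. CON and PF animals were alike in median and PAE animals lower, with log2 differences of −0.56 (SE 0.21, adjusted p = 0.661) and −0.59 (SE 0.21, adjusted p = 0.988). Of the 11 genes, PAE was lower than CON in 4 of 4 lanes at Gpatch2l, Dock1, Atp2b2, Hyal2, Parn and Clec4b2, and in 3 of 4 at Pdzd7, Plxdc2, Ccdc114, Gne and Phldb1. Leaving out any 1 animal kept the sign of all 30 named differences refitted in this way. They were picked for a low p or from the study's lists of these same animals. Neither a kept sign nor the counts of lanes given for them is therefore evidence of a difference.

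**Figure D5:**
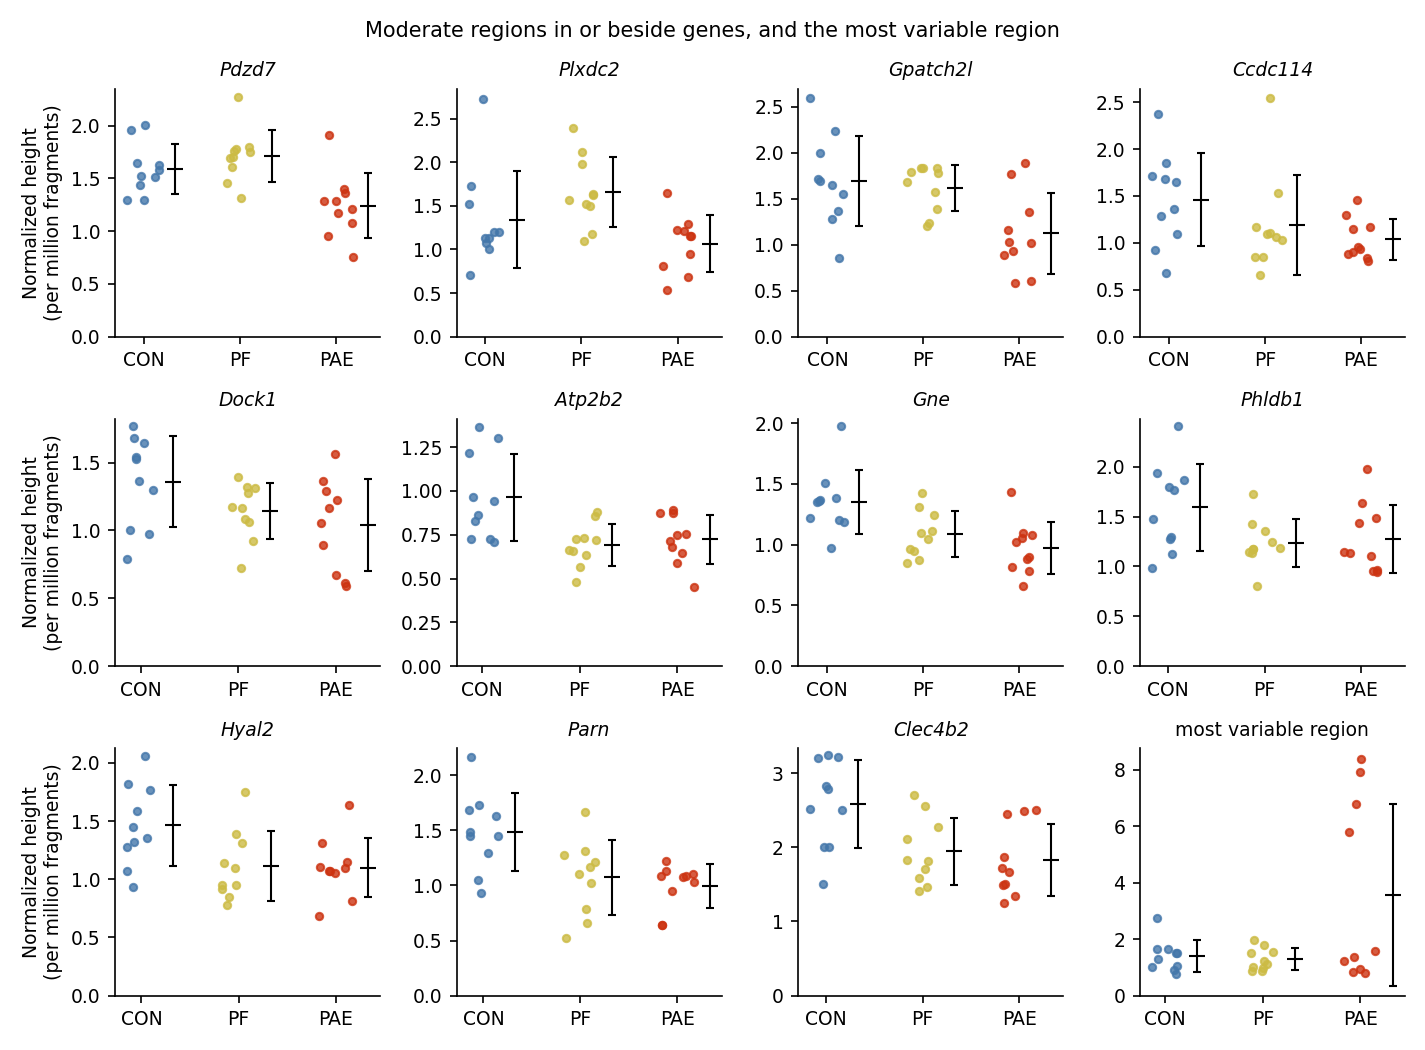
Each panel shows normalized height (y axis, pileup per 1000000 fragments, from 0) in every animal of the CON, PF and PAE groups, for the 11 regions in or beside genes and for the most variable region, with the mean and SD (n = 10 each) beside the points. Groups overlap in every panel, and in the last 4 PAE animals at 5.79 to 8.37 stand apart from the other 26 at 0.752 to 2.75.

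Moderate regions also lay between listed regions of 1 gene, which places them in its body. Of 30 genes with at least 2 listed regions in the gene body, 8 had a moderate region in between, 9 in all. Cdh13, the gene of T-cadherin, a cell adhesion protein anchored by a lipid, had 2 among 138 tested regions in the 578251 bp between its listed regions. Their heights were 1.16, 1.45 and 2.06 in CON, 1.13, 1.37 and 1.91 in PF, and 0.965, 1.09 and 1.65 in PAE animals at chr19:51398126-51399409. At chr19:51618834-51619558 they were 1.38, 1.76 and 2.25 in CON, 1.03, 1.62 and 2.34 in PF, and 1.24, 1.62 and 1.79 in PAE animals. Neither differed beyond the spread between animals, with log2 differences of PAE from CON of −0.28 (SE 0.16, adjusted p = 0.695) and −0.20 (SE 0.16, adjusted p = 0.778). Genes with 1 such region each included Camta1 (a calmodulin-binding transcription factor), Ephb1 (an ephrin receptor), Magi1 (a junction scaffold), Ptprk (a receptor phosphatase), Tenm2 (a teneurin adhesion receptor) and Trpm3 (a cation channel). In these 6 the log2 differences of PAE from CON ran from −0.28 at Ptprk to 0.23 at Trpm3, none with an adjusted p under 0.717.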

How the data were processed

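Genomic DNA of 30 rat PFC samples was measured by meDIP-seq. By the submitters' processing notes BWA, SAMtools and the Rn6 build were used. The authors called peaks in each animal by MACS2 (2.1.4 in the headers) against the local background only, with a q-value threshold of 0.05 and 1 copy of duplicate fragments kept. The deposited pileup is the coverage signal at a summit, and the authors' files also hold its fold enrichment and −log10 q-value.

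Here peaks were merged at 1 bp of overlap, and heights were scaled to 1000000 filtered fragments. Values under 0.438, and libraries without a peak, were set to that floor before fitting, which raised 474 values (0.147%) in 405 of the 10722 moderate regions, so a low value there is understated in its distance. With pileups of 5 to 123, counting error is large, and pooling of peaks by their highest point ignores their width. The log2 heights of all 352026 regions entered limma (version 3.58.1, R 4.3.3; trended variance; group, labelled sex and lane; Benjamini-Hochberg adjustment), after tests on simulated data. Other values came from Python 3.11.15, numpy 2.4.6 and pandas 2.3.3, and figures from matplotlib 3.10.9.

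The members and lists were chosen with earlier results of these data known. Named are the regions listed by the study in a gene, the 3 of lowest p per contrast, lane, litter and labelled sex, the 3 largest and smallest SDs, the 3 longest and shortest, the 3 at each limit and the 3 densest windows of 100 kb. The labels do not say that samples were processed apart beyond their lanes. Littermates share a dam by labels that were not checked, which gives the pairing: their consensus correlation within the model was −0.020. Gene names come from the positions in the study's supplementary tables, with no value used. Annotation of Rn6 was not used here. Alternatives were other scalings, filters, merging and calling limits, a litter block and leaving out each animal, plus 2 chosen after seeing the data (no labelled sex term, and only libraries whose sex chromosome peaks go with the label). The region of 1 gene is not reported here.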

Additional observations from a re-analysis of the deposited data

Results flagged for a closer look

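Among 216 groups of 10 values (the named regions and the library medians in each of the 3 groups), 10 had a highest or lowest animal far from the rest by Dixon's gap on the log2 scale, about 1 in 20 as chance gives. In CON animals the lone value was the lowest at chr12:138370-138953 (1.93) and at chr10:21123915-21124976 between listed regions of Tenm2 (1.29), and the highest at chr14:89594070-89595637 (1.35). In PF animals it was the lowest at chr5:115508991-115509610 (0.495) and the highest at chr1:78734775-78736283 (2.78) and chr1:81398374-81400053 (2.39). In PAE animals it was the highest at chr1:81398374-81400053 (2.93) and at chr5:168417894-168419001 between listed regions of Camta1 (2.38), and the lowest at chr2:205425842-205427749 (0.894) and chr14:89764516-89764952 (2.01). The 2 regions of chromosome 1 are among the 3 with the lowest p for lane. The 4 high PAE animals at chr1:36749285-36750752 are not among these values, since they lie close to each other.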

How the results depend on the processing

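No moderate region passed in PAE versus CON, PAE versus PF, PF versus CON or the 3 interactions under any alternative run, including a replicate block with litter as a random effect (0 in each, and 2 for lane). The count for lane became 0 with median ratio scaling, 0 with quantile normalization, 9 with peaks covering at least 50% of the region and 10 with no filter. It was 754 with only the 11914 regions called in all 30 libraries and no floor. There the variance trend was estimated, and p adjusted, over those regions alone, so 754 cannot be set beside the other counts. The count for lane ranged from 0 to 103 with 1 animal left out, the highest without PAE replicate 3_F and 87 without PAE replicate 2_M. The count for litter became 3 with no floor, again adjusted over the 11914 regions alone, and 5 with 50% coverage. Leaving out 1 animal gave 0 to 11 regions for PAE versus CON and 0 to 8 for PF versus CON among libraries labelled female, 11 and 8 without PAE replicate 6_F and 6 and 5 without CON replicate 43_F. With only libraries that go with the labelled sex, chosen after seeing the data, 6 regions passed for labelled sex, 3 for PAE versus PF and 10 for PF versus CON in those labelled male, but with lane in the model the first rests on 1 labelled male in lane 5 and the others on 1 PF library. The shares of all tested regions called under these alternatives are not given beside these counts. Counts above 0 are therefore not a result about the moderate regions. The causes were not tested.

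A peak in at least 29 libraries, in place of 30, gave 16199 moderate regions. The 30 named differences were picked for a low p or from the study's lists, so a kept direction is not evidence for them. Under the alternatives other than leaving out an animal, 235 of 236 values kept their direction. The exception was chr2:140245992-140246804 between PAE and CON (0.27 with 50% coverage). The smallest adjusted p of a named difference under any alternative was 0.133 by limma. Pileups of about 18 fragments limit what can be seen in a single region, and fragments outside called peaks were not measured.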
